A study of Mus musculus with 6 samples.

Results

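The genes described here are 7 ligands of the EGF family (Btc, Egf, Hbegf, Tgfa, Areg, Ereg and Nrg1) and 3 ErbB receptors (Egfr, Erbb2 and Erbb3). They were taken by exact gene symbol, and all 10 were found among the 24346 symbols listed in each library. The family was chosen by the FPKM values of betacellulin, Btc, which were higher in the knockout retina, so the members' values in that contrast are given as a description and not as a test. RNA of mouse retina was sequenced from 3 libraries of Unc119+/+ mice (wild type) and 3 of Unc119-/- mice (knockout). UNC119 is a carrier of lipid-modified proteins in photoreceptors, and the study asked what its loss does to retinal gene expression, with inflammatory pathways named in its title. The sources used here do not give age, strain background or the form of the Unc119 allele, nor whether each library came from a separate animal. Errors and p-values therefore cover the spread between these libraries, which may be partly technical. Values of single libraries are listed in the order of replicates 1, 2 and 3.

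EGF family ligands are made as membrane-anchored precursors and are released by metalloproteases of the ADAM family. The released ligand joins ErbB receptors into pairs, and the receptors then signal through the RAS-MAPK and PI3K-AKT routes. Betacellulin binds EGFR and ERBB4, and the neuregulins bind ERBB4 and, for some of them, ERBB3. ERBB2 has no known ligand of its own and serves as a partner. In the retina, EGFR signalling is best known for its effect on Müller glia, the main glial cell, which can divide or change state when it is stimulated.

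Btc lies on chromosome 5 (ENSMUSG00000082361.6, 91357261 to 91402994, minus strand, GENCODE M21 on GRCm38, the build also called mm10) and overlaps no other annotated gene on either strand. The 250 bases before its start, chr5:91402995-91403244 on the minus strand of GRCm38.p6, are shown because Btc is the gene that sets this family apart, and they are credited to RefSeq. All letters are in lower case because none of the patterns named below matched.
Btc: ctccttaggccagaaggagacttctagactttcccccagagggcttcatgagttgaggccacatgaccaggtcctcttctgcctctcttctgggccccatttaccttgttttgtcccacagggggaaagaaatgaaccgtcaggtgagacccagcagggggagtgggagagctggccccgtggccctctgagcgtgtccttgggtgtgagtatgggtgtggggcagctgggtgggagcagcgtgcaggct
Patterns for 3 factor families were searched on both strands. STAT and NF-kB stand for the pathways of the study's title, and AP-1 lies downstream of ErbB receptors. None of the STAT pattern TTCNNNGAA, the AP-1 pattern TGANTCA and the short NF-kB pattern GGGNNTTCC was in this window. They occur in 7.02%, 6.75% and 4.98% of the 32851 promoter windows of that length. This says only that these letters are not in these bases, and longer forms of the NF-kB site were not searched. The window held 59.6% G and C, against a median of 52.4% over all windows.

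Unc119, the targeted gene, was lower in every knockout library than in any wild-type library. It measured 1191, 1187 and 1206 FPKM in the wild-type libraries and 510.2, 459.9 and 448.5 FPKM in the knockout libraries. FPKM is the number of fragments per kilobase of transcript, scaled to the number of mapped fragments, so levels of different genes can be set side by side. The rod markers fixed for the check of the tissue were present in every library, with a summed level of 23000 to 24900 FPKM. Xist and Y-linked genes marked 3 libraries as male (wild-type replicates 1 and 2, knockout replicate 1) and the other 3 as female. Knockout replicate 3 stood apart in lens RNA: 11 lens markers summed to 3940 FPKM there and to between 0.75 and 305 FPKM in the other 5 libraries.

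Btc was higher in the knockout. Its level was 4.63, 4.93 and 3.53 FPKM in the wild-type libraries and 9.90, 12 and 8.40 FPKM in knockout replicates 1, 2 and 3. Every knockout library was above every wild-type library, and the gap between the lowest knockout and the highest wild-type library was wider than the range within the wild type and about as wide as that within the knockout. The mean ± SD (n = 3 each) was 4.37 ± 0.74 FPKM for the wild type and 10.1 ± 1.80 FPKM for the knockout, a ratio of 2.31. In whole retina, more RNA per cell and more cells that make it cannot be told apart. On the scale of log2(FPKM + 1) the difference was 1.05 with a standard error of 0.15.

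The call that led to this family lay at the threshold. Genes with a mean of at least 0.5 FPKM over the 6 libraries were fitted together in limma, 14176 in all, and 33 had a Benjamini-Hochberg adjusted p under 0.05. That is 0.233% of the genes tested (29 higher, 0.205%, and 4 lower, 0.0282%). By p, Btc was the last of the 33, with a limma adjusted p of 0.0496. The gene just outside was Lcn2, an acute-phase gene, at 0.0589. Leaving out any single library left Btc over the threshold, with limma adjusted p between 0.0584 and 0.216, while its difference stayed between 0.93 and 1.16. With no filter on low values (0.118), quantile normalization (0.0613), a sex term (0.103) and a lens term (0.247), the limma adjusted p was over the threshold too.

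The depth behind Btc could be read from its values in part. In 8 of the 10 genes, including Btc, the FPKM times the library's relative depth was a whole multiple of a single step in all 6 libraries, within 0.01 of a step. For Btc these multiples were 76, 106 and 61 in the wild-type libraries and 199, 240 and 174 in the knockout libraries. The product of the step and the length in kilobases of the longest coding transcript was 0.130 to 0.152 in Btc, Egf, Hbegf, Tgfa, Areg and Erbb2, as it would be about equal if a step is 1 fragment. It was 0.196 in Erbb3 and 0.355 in Nrg1. Read as fragments, the exact Poisson 95% interval of Btc was 4.04 to 5.97 FPKM in wild-type replicate 2, the highest of its group, and 7.20 to 9.75 FPKM in knockout replicate 3, the lowest of its group. Such intervals cover counting error only, since fragments copied by PCR are not independent molecules.

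**Figure D1:**
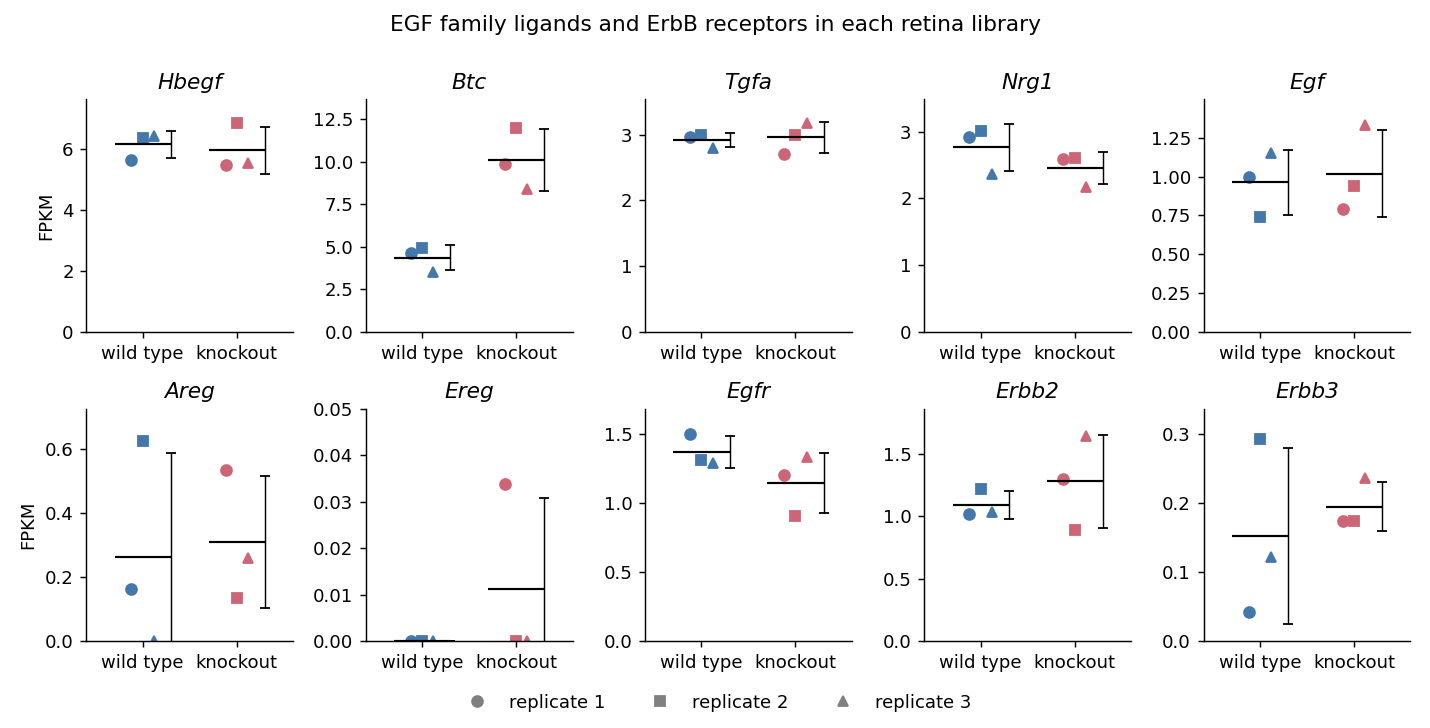
Level in FPKM (vertical axis, from 0, a separate scale for each gene) of the 10 genes in the 3 wild-type and 3 knockout libraries. Points are libraries, horizontal lines are means and bars are SD (n = 3, shown only above 0). The groups are apart for Btc, from 3.53 to 4.93 against 8.40 to 12 FPKM, and overlap for the other 9 genes.

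The other ligands that bind EGFR had overlapping levels in the 2 genotypes. Hbegf, the heparin-binding ligand, measured 5.63, 6.36 and 6.41 FPKM in the wild-type libraries and 5.45, 6.83 and 5.53 FPKM in the knockout libraries. The highest and the lowest library were both knockouts. Tgfa, transforming growth factor alpha, measured 2.96, 3.0 and 2.80 FPKM in the wild type and 2.71, 2.99 and 3.17 FPKM in the knockout. Its knockout libraries lay on both sides of the wild-type range. Egf, the founding ligand of the family, was lower in level, at 1.0, 0.738 and 1.15 FPKM in the wild type and 0.789, 0.939 and 1.33 FPKM in the knockout. The differences on the log2(FPKM + 1) scale were −0.04 for Hbegf (SE 0.11), 0.01 for Tgfa (SE 0.10) and 0.04 for Egf (SE 0.16), each smaller than its standard error.

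Areg and Ereg were at the limit of what these libraries can measure and did not reach the filter. Areg, amphiregulin, was listed at 0.164, 0.624 and 0 FPKM in the wild-type libraries and at 0.534, 0.134 and 0.259 FPKM in the knockout libraries, which are 1, 5, 0, 4, 1 and 2 steps. A difference between genotypes was not detectable at this depth. Ereg, epiregulin, was listed at 0.0338 FPKM in knockout replicate 1 and at 0 in the other 5 libraries. Epgn, epigen, the remaining EGFR ligand, was also listed above 0 in that library alone, at 0.0886 FPKM. A value of 0 in tables of this kind can also be a failed estimate, so no fold is given.

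The make-up of the EGFR ligand transcripts followed Btc. The 7 ligands (Btc, Hbegf, Tgfa, Egf, Areg, Ereg and Epgn) summed to 14.4, 15.7 and 13.9 FPKM in the wild-type libraries and to 19.5, 22.9 and 18.7 FPKM in the knockout libraries. Btc made up 32.2%, 31.5% and 25.4% of that sum in wild type and 50.8%, 52.4% and 44.9% in the knockout. Hbegf, with 39.1% to 46.1% of the sum, was the most abundant ligand in each wild-type library, and in each knockout library Btc was. The ratio of Btc to Hbegf within a library was 0.823, 0.776 and 0.551 in wild type and 1.82, 1.76 and 1.52 in the knockout. These ratios do not depend on the scaling between libraries, and they hold the same difference in Btc that chose the family.

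**Figure D2:**
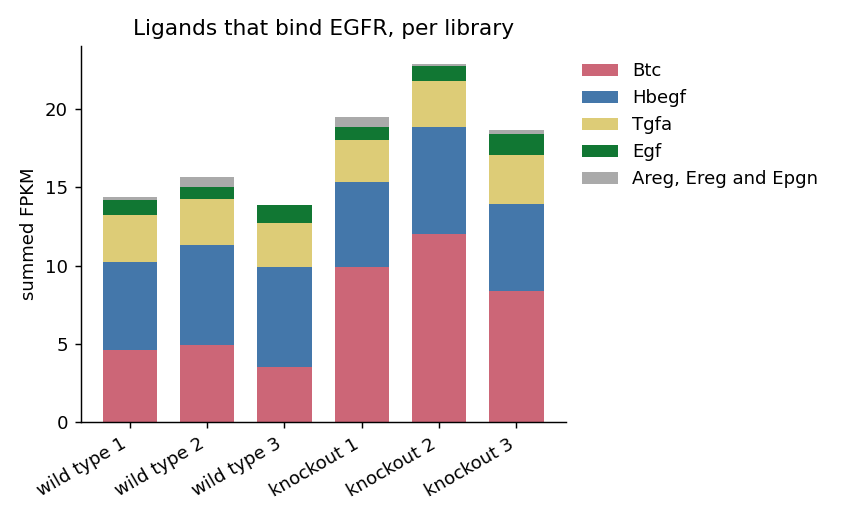
Summed FPKM (vertical axis, from 0) of the ligands that bind EGFR, stacked by gene, for each of the 6 libraries. The Btc layer is apart between the genotypes, at 3.53 to 4.93 FPKM in the wild type and 8.40 to 12 FPKM in the knockout.

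Nrg1 represents the neuregulins, which signal through ERBB4 and, for some of them, ERBB3. It measured 2.92, 3.01 and 2.36 FPKM in the wild-type libraries and 2.59, 2.60 and 2.17 FPKM in the knockout libraries. The lowest library was a knockout and the ranges overlapped, with a log2(FPKM + 1) difference of −0.12 (SE 0.12). The other neuregulins had levels of the same order: over the 6 libraries Nrg2 ran from 1.30 to 2.0 FPKM, Nrg3 from 2.21 to 3.66 FPKM and Nrg4 from 2.42 to 3.32 FPKM. None of Nrg2, Nrg3 and Nrg4, which took no part in choosing the family, passed the test. Their limma adjusted p were 0.98, 0.856 and 0.729, with differences of 0.02 (SE 0.14), −0.11 (SE 0.15) and 0.15 (SE 0.12). Nrg4 overlaps Fbxo22 on the opposite strand and Nrg3 overlaps Nrg3os. The sources used here do not say whether counting used strand, so reads of such partners cannot be told apart.

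The receptors were expressed below Hbegf, Btc and Tgfa. Egfr, the receptor of Btc and the other EGF-like ligands (chromosome 11, 16752203 to 16918158, plus strand), measured 1.5, 1.31 and 1.29 FPKM in the wild-type libraries and 1.2, 0.905 and 1.33 FPKM in the knockout libraries. Its 2 lowest values were in knockout libraries, and knockout replicate 3 lay inside the wild-type range. The log2(FPKM + 1) difference was −0.14 (SE 0.13). Egfr overlaps the antisense gene Egfros, and its values were not whole steps. Erbb2, the partner receptor, measured 1.02, 1.22 and 1.03 FPKM in the wild type and 1.30, 0.892 and 1.64 FPKM in the knockout. The knockout held both the highest and the lowest library, with a difference of 0.11 (SE 0.16). Erbb2 overlaps Mien1 on the opposite strand.

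Erbb3, a neuregulin receptor with weak kinase activity, was barely present, at 0.0427, 0.293 and 0.122 FPKM in the wild-type libraries and 0.174, 0.175 and 0.237 FPKM in the knockout libraries. These are 1, 9 and 3 steps against 5, 5 and 7, so a difference was not detectable at this depth. Erbb4, the other neuregulin receptor and the other receptor of Btc, measured 1.61, 1.6 and 1.72 FPKM in the wild type and 1.54, 1.94 and 2.1 FPKM in the knockout. Knockout replicate 1 was the lowest of the 6 libraries and the other knockouts the highest. The difference was 0.11 (SE 0.12, limma adjusted p = 0.805).

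The order of mean levels was read over the 15 ligand and receptor genes. In wild type it began with Hbegf (6.13 FPKM), Btc (4.37 FPKM) and Tgfa (2.92 FPKM), and the ranges of these 3 did not overlap. Tgfa, Nrg4, Nrg3 and Nrg1 followed within overlapping ranges, then Nrg2 and Erbb4, which overlapped too. Egfr at 1.37 FPKM was above Erbb2 at 1.09 FPKM without overlap, while the ranges of Erbb2 and Egf overlapped. In the knockout Btc came first at 10.1 FPKM and Hbegf second at 5.93 FPKM, again without overlap. Erbb2 (1.28 FPKM), Egfr (1.15 FPKM) and Egf (1.02 FPKM) could not be separated there. The range of Erbb2 also overlapped those of Nrg2 and Erbb4 in the knockout.

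**Figure D3:**
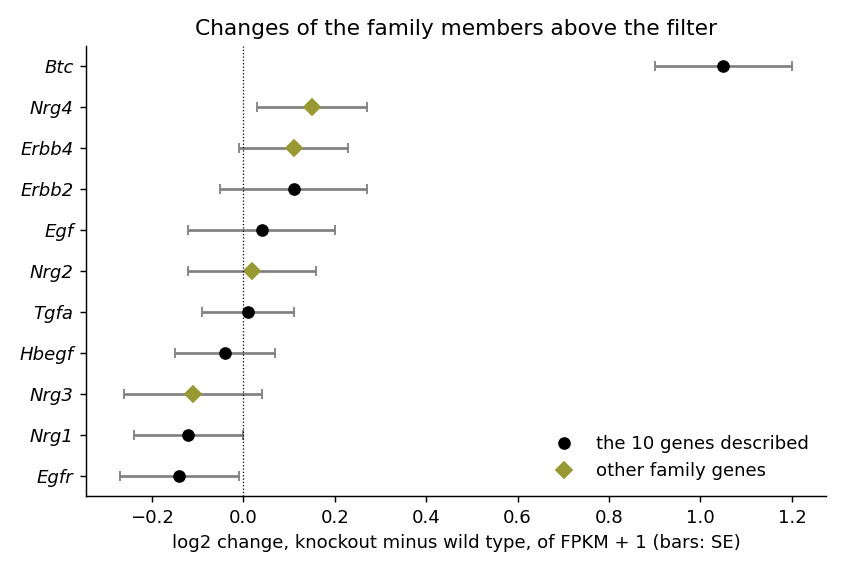
Difference of knockout minus wild type on the log2(FPKM + 1) scale (horizontal axis, bars are standard errors of the limma fit, n = 3 per group) for the 7 described genes above the filter (circles) and the 4 other family genes above it (diamonds). Btc lies at 1.05, and the other 10 genes lie between −0.14 and 0.15.

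Of the 10 members, 7 reached the filter, and 1 of them, Btc, had a limma adjusted p under 0.05. Since Btc chose the family, nothing is read from that count against the 0.233% of all genes tested. Without Btc, 3 of the 6 remaining tested members were higher and 3 lower, with a median of −0.02, beside a median of 0.00 over all genes tested. With quantile normalization Egf (−0.02) and Tgfa (−0.06) were lower instead of higher. Groups did not overlap for Btc alone among the 7, against 15.9% of all genes.

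Genes that release, carry, restrain or answer ErbB signals did not pass the test. The list held 65 genes outside the family, of which 64 were in the files and 59 were tested. No gene was called higher and none lower by limma. At an unadjusted p under 0.05 there were 4 higher and 1 lower, against 9.00% of all genes tested, and groups did not overlap for 6 higher and 4 lower, against 7.83% and 8.04% of all genes tested. The median difference was 0.01. The highest difference was 0.57 and the lowest −0.32, while Btc lay at 1.05.

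Among genes of ligand release, 6 were tested and none passed. Adam10, the protease that releases betacellulin and EGF, measured 14.2, 15.3 and 15.7 FPKM in the wild-type libraries and 14.4, 15.6 and 15.1 FPKM in the knockout libraries (difference 0.00, SE 0.07). Adam17, which releases Tgfa, Areg and Hbegf, measured 5.02, 5.75 and 5.53 FPKM in the wild type and 6.76, 6.18 and 5.56 FPKM in the knockout (0.15, SE 0.10). Both were chosen for their role after their values were seen. Adam9 was the most abundant of the group, at 44.9 ± 2.45 and 42.8 ± 1.80 FPKM (SD, n = 3 each). Timp3, an inhibitor of metalloproteases, had the highest difference (0.42, SE 0.22, limma adjusted p = 0.611). It measured 15.9, 14.6 and 17.0 FPKM in the wild type and 15.2, 20.5 and 31.6 FPKM in the knockout, and its highest value was in knockout replicate 3, the library rich in lens RNA. Whether the lens RNA bears on it was not tested.

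All 25 adaptors and effectors were tested, and none passed. Araf, a kinase of the MAPK route and the most abundant of them, measured 114 ± 7.13 FPKM in the wild type and 112 ± 7.02 FPKM in the knockout. Akt2, a kinase of the PI3K route, had the highest difference of the group. It measured 17.3, 19.4 and 20.6 FPKM in the wild-type libraries and 22.1, 21.6 and 23.1 FPKM in the knockout libraries (0.21, SE 0.07, limma adjusted p = 0.482), and the groups did not overlap.

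Feedback inhibitors include genes that many cells raise when EGFR is active. Of the 16 tested, 11 were lower in value, beside 7189 of all 14176 genes tested. Their median was −0.06, beside 0.00 over all genes tested, and none passed. Dusp5, a phosphatase of ERK, measured 7.53, 9.66 and 11.4 FPKM in the wild-type libraries and 7.96, 7.99 and 6.23 FPKM in the knockout libraries (−0.32, SE 0.15, limma adjusted p = 0.579). Spry2, a Sprouty inhibitor and the most abundant of the group, measured 31.4 ± 3.63 and 26.3 ± 2.24 FPKM (SD, n = 3 each, limma adjusted p = 0.519). Spred2, an inhibitor of RAF activation, had the highest difference of the group, at 4.54 ± 0.131 and 5.26 ± 0.705 FPKM (0.17, limma adjusted p = 0.663). Errfi1, a direct inhibitor of EGFR, chosen after its values were seen, measured 12.5, 11.6 and 14.7 FPKM in the wild type and 12.5, 12.8 and 12.3 FPKM in the knockout.

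Of the 12 tested genes that ErbB signals are known to induce, none passed. Junb, an AP-1 subunit, came closest, with 9.46, 11.7 and 10.7 FPKM in the wild-type libraries and 15.3, 18.1 and 15.4 FPKM in the knockout libraries. Every knockout library was above every wild-type library, as for 7.83% of all genes tested (0.57, SE 0.10, limma adjusted p = 0.119). Vegfa, a growth factor for vessels and the most abundant of the group, measured 50.7 ± 4.09 and 54.1 ± 3.33 FPKM (SD, n = 3 each). Ier3, an early response gene, had the lowest difference of the group (−0.22, SE 0.10, limma adjusted p = 0.575), at 49.4 ± 5.72 and 42.3 ± 4.95 FPKM.

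**Figure D4:**
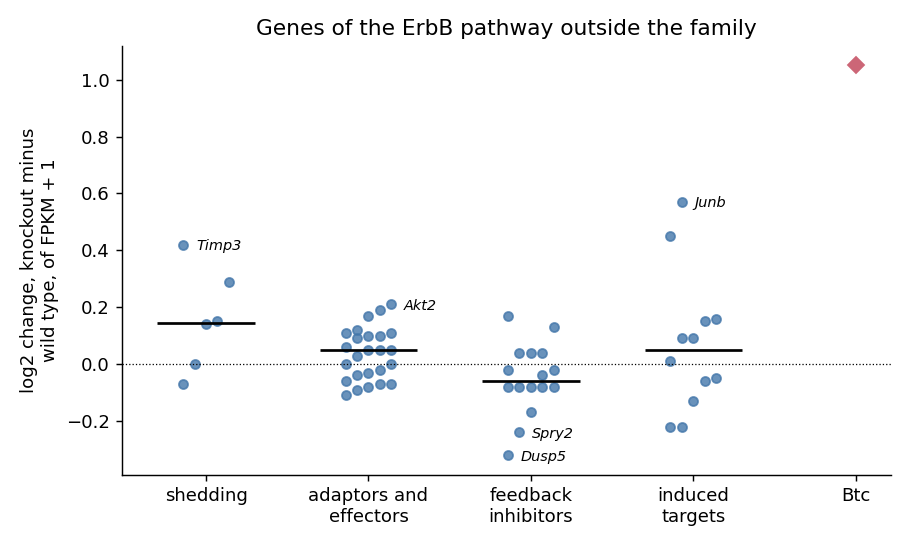
Difference of knockout minus wild type on the log2(FPKM + 1) scale (vertical axis) for the 59 tested pathway genes outside the family, by role, with the median of each group as a line and Btc as a diamond. The pathway genes lie between −0.32 and 0.57, and Btc at 1.05.

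The genes whose pattern over the 6 libraries was most like that of Btc were Rtp3, Rfx2, Osmr, Sox30 and Jak3. Likeness was the root mean square difference between the libraries' deviations from each gene's own mean, on the log2(FPKM + 1) scale, and it ran from 0.14 for Rtp3 to 0.19 for Jak3. Rfx2 and Sox30 are transcription factors, Osmr is the receptor of oncostatin M and Jak3 a Janus kinase. Osmr measured 2.18, 2.58 and 1.74 FPKM in the wild-type libraries and 3.82, 5.94 and 4.29 FPKM in the knockout libraries. Jak3 measured 1.17, 1.04 and 1.08 FPKM in the wild type and 2.29, 3.25 and 2.48 FPKM in the knockout. Sox30 measured 8.35, 7.89 and 8.42 FPKM and 15.9, 19.5 and 17.1 FPKM, and Rfx2 2.33, 2.87 and 2.32 FPKM and 5.82, 6.02 and 5.71 FPKM. Rtp3 measured 0.941, 0.773 and 0.275 FPKM and 1.95, 2.25 and 1.6 FPKM. All 5 genes were highest in knockout replicate 2, as Btc was. Because likeness was taken over the 6 libraries, genes like Btc were bound to share its differences by genotype and by library.

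Of the markers of other cells, 1 passed the test: C1qc, a complement subunit made by microglia, named here after its values were seen. It measured 2.68, 3.51 and 3.09 FPKM in the wild-type libraries and 7.03, 6.43 and 9.4 FPKM in the knockout libraries (difference 1.06, SE 0.14, limma adjusted p = 0.0423). It was 1 of 10 microglia markers, and the other 9 did not pass. The summed level of the 10 was 23.9 to 29.9 FPKM in the wild type and 46.6 to 54.1 FPKM in the knockout, without overlap, and none of them was at 0 in every library. Gene by gene, 7 of the 10 lay above the wild-type range in every knockout library, as did 7.83% of all genes tested, while Csf1r, P2ry12 and Tmem119 overlapped. The part of these cells in the level of Btc was not tested. The sum of 8 markers of cornea and ciliary body was 4.2 to 14.3 FPKM in the wild type and 35.1, 14.1 and 44.7 FPKM in knockout replicates 1, 2 and 3, and Kera was at 0 in every library. Knockout replicates 1 and 3 were above the wild-type range of that list and knockout replicate 2 was within it. Different genes made up these 2 high sums. In knockout replicate 1 the keratins Krt12 and Krt5 measured 14.8 and 7.29 FPKM, above the wild-type range. In knockout replicate 3 they measured 0.938 and 0.065 FPKM, within that range, and Aldh3a1 at 33 FPKM was most of the sum. The part of these cells in the level of Btc was not tested either. The lens sum was 49.6, 305 and 0.75 FPKM in the wild type and 96.2, 243 and 3940 FPKM in the knockout. Without knockout replicate 3 the difference of Btc was 1.16 (SE 0.15, limma adjusted p = 0.0584), and with a lens term it was 1.07 (SE 0.19, limma adjusted p = 0.247). The part of lens RNA in the level of Btc was not tested beyond these fits. Summed markers of Müller glia overlapped, at 1420 to 1520 FPKM in the wild-type libraries and 1380 to 1440 FPKM in the knockout libraries. Glul was the largest part of that sum, at 787 to 892 FPKM over the 6 libraries. Of these 8 markers, Glul and Kcnj10 were below the wild type in every knockout library, as were 8.04% of all genes tested. Aqp4 was above it, as were 7.83%, and none of the 8 passed the test. Sums also overlapped for pigment epithelium (31.2 to 55.2 and 23.8 to 84.9 FPKM), vessels (86.2 to 96.1 and 87.4 to 96.8 FPKM) and optic nerve glia (10.2 to 12.6 and 11.1 to 13.0 FPKM).

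**Figure D5:**
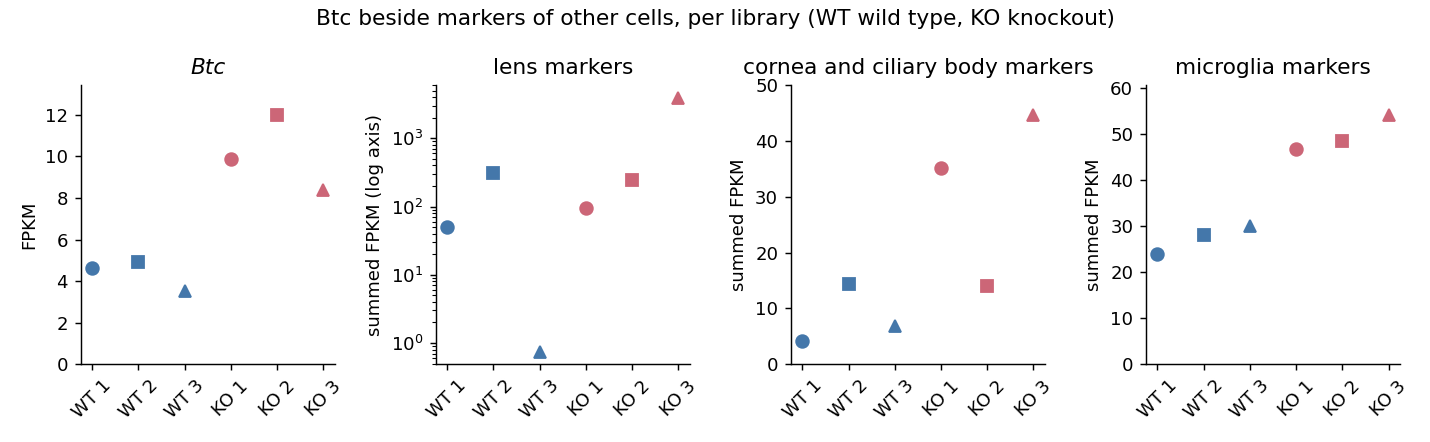
Btc (FPKM) and the summed FPKM of markers of lens (log axis), of cornea and ciliary body, and of microglia, for each library (WT wild type, KO knockout). Btc is highest in knockout replicate 2 at 12 FPKM, and lens markers are highest in knockout replicate 3 at 3940 FPKM.

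The sexes were unequal between genotypes, so Btc was also set side by side within each sex. Among males the wild-type libraries had 4.63 and 4.93 FPKM and the knockout library 9.90 FPKM, a ratio of 2.07 between the means. Among females the wild-type library had 3.53 FPKM and the knockout libraries 12 and 8.40 FPKM, a ratio of 2.89. Each sex had a single library on one side, so neither ratio has a test.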

How the data were processed

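Retina RNA was extracted with TRIzol and made into stranded mRNA libraries, per the labels' protocols. TopHat2 2.1.1 and Cuffdiff 2.2.1 on mm10 are named in the submitters' processing notes. The authors deposited 1 table of FPKM per library, per the file headers. The sources used here do not give the annotation, the strand setting or the scaling between libraries. Factors by the median of ratios differed little (1.001 to 1.002). FPKM are not counts: absolute depth is unknown, and relative depth, read from genes of at most 0.3 FPKM, was 0.763, 1 and 0.805 in the wild-type libraries and 0.935, 0.931 and 0.964 in the knockout libraries.

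Genes with a mean of at least 0.5 FPKM were fitted on log2(FPKM + 1) with limma 3.58.1 (R 4.3.3), with a prior variance that follows the level. Tests were two-sided, and p-values were adjusted over all tested genes by Benjamini-Hochberg. The pseudocount of 1 understates changes of low genes. An exact permutation test of 3 against 3 cannot go below 0.1 and was not used. Python 3.11.15 made the tables and plots.

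The 10 members, the pathway list and the marker lists were chosen with earlier results of these data known. Named are the members, the 5 other family genes, Unc119, the 5 genes most like Btc and, in each part of the pathway list, called genes or else the most abundant, highest and lowest. A gene that this rule names is not reported here. Alternatives were a pseudocount of 0.1, no filter, a filter of 1 FPKM, other scalings, replicate, sex and lens terms, and leaving out each library.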

Additional observations from a re-analysis of the deposited data

Results flagged for a closer look

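For 3 of the 11 family genes tested, the knockout libraries lay on opposite sides of the wild type in males and females. The same held for 2480 of all 14176 genes tested, or 17.5%. The difference between the sexes was not tested, since each sex has a single library on one side. Tgfa was lower in the male knockout (log2(FPKM + 1) difference −0.10, from a mean of 2.98 to 2.71 FPKM) and higher in both female knockouts (0.10, from 2.80 to 3.08 FPKM). Nrg2 was higher in the male knockout (0.15, from 1.5 to 1.77 FPKM) and lower in the females (−0.18, from 2.0 to 1.65 FPKM). Erbb4 was lower in the male knockout (−0.03, from 1.6 to 1.54 FPKM) and higher in the females (0.15, from 1.72 to 2.02 FPKM).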

How the results depend on the processing

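The difference of Btc ran from 0.93 to 1.19 over 14 alternatives, always within the spread between replicates of its value of 1.05. The limma adjusted p of Btc was under 0.05 in 4 of the 14 (0.0366 to 0.247 over all). Median-of-ratios scaling, among these 4, had factors of 1.001 to 1.002 and so nearly repeated the main fit (limma adjusted p = 0.0496). The number of genes called higher, 29, was 17 with a sex term, 5 with a lens term and 9 to 14 with a library left out. The number called lower, 4, was 2 with no filter, with a sex term and with a lens term, and 2 to 4 with a library left out. The cause was not tested. With the replicate number as a block, 13 were called higher and 2 lower, and Btc kept its difference of 1.05 (limma adjusted p = 0.0366). Deviations of same-numbered libraries from their group means correlated at 0.07, −0.09 and −0.12, and those of differently numbered libraries at −0.08 to 0.17. With 3 libraries per group these values cannot decide whether the numbers pair the libraries. No pathway gene was called in any alternative. Among the other tested members, Nrg1 (−0.20 to −0.06) and Egfr (−0.25 to −0.06) kept their sign, and Egf, Hbegf, Tgfa and Erbb2 took both signs. Areg, Ereg and Erbb3 are limited by depth.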

Other observations

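Btc lies in a cluster with other EGFR ligands on chromosome 5. Within 500 kb of Btc, 7 other protein-coding genes were listed, a set chosen after the values of Btc were seen. The ligands Epgn (91027464 to 91035215), Ereg (91074622 to 91093646) and Areg (91139599 to 91148432) stayed below the filter, as did the chemokines Cxcl1 and Cxcl2. Only 2 neighbours were tested, and limma called neither. Parm1, 115 kb away and the nearest, measured 7.03 ± 0.683 FPKM in the wild-type libraries and 7.14 ± 0.792 FPKM in the knockout libraries (SD, n = 3 each, with a log2(FPKM + 1) difference of 0.02, SE 0.10, adjusted p = 0.970). Mthfd2l, a mitochondrial folate enzyme 336 kb away, measured 3.49 ± 0.299 and 4.26 ± 0.342 FPKM (0.23, SE 0.10, adjusted p = 0.566).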
